A study of Mus musculus with 28 samples.

Results

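H3K9me3 of Setdb1 knockout (KO) cells was compared between 2 mouse tumour lines, MC38, a colon adenocarcinoma, and B16OVA, a melanoma called B16 here. The comparison used 6 chromatin immunoprecipitation libraries, 3 of MC38 KO and 3 of B16 KO cells, chosen because their titles name SETDB1 and H3K9me3. They were 6 of the 12 H3K9me3 libraries and 6 of the 24 libraries with a file, in a series of 28 samples. KO cells of both lines had been transduced with a guide against Setdb1 in the vector pCRISPR-v2-puro, and control cells carried the empty vector. All were grown with puromycin. The 12 H3K9Ac libraries (acetylation of the same lysine, found at active promoters) served as a readout that the KO comparison did not use. The 3 MC38 control and 3 B16 control libraries of H3K9me3 were compared between lines as well. Their values are not part of the KO difference, but the main fit shared its filter, scaling and estimate of spread with them. Whether the numbered replicates came from separate cultures is not stated. The p-values thus reflect only how far these libraries differ from each other, which may be technical.

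Setdb1 is a methyltransferase that places 3 methyl groups on lysine 9 of histone H3. It is recruited by KRAB zinc finger proteins and their cofactor Trim28, and by the HUSH complex, and is known for silencing endogenous retroviruses and clustered gene families. Other enzymes, Suv39h1 and Suv39h2 among them, place the same mark, so chromatin of cells without Setdb1 keeps H3K9me3. The question here was which H3K9me3 in KO cells lay in 1 line and not in the other.

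The island files held 18635578 to 45419584 reads in 41012 to 80233 islands per KO library, an island being a stretch in which the authors' caller found reads enriched. Islands covered 563, 442 and 215 Mb in the MC38 KO libraries 1, 2 and 3, against 431, 367 and 406 Mb in the B16 KO libraries. MC38 KO library 3 stood apart by its short covered length, although its reads per kb of island, at 88.2, were the highest of the 6. The means of covered length, 407 ± 177 Mb in MC38 KO and 401 ± 32.2 Mb in B16 KO (SD, n = 3 each), differed by less than the spread between libraries (exact two-sided permutation p = 0.9, where 0.1 is the smallest that 3 against 3 can give). Acetylation at gene starts matched the labels in part. Of 14 tested melanocyte markers 8 were lower in MC38 KO (edgeR, adjusted p under 0.05), and Dct, Tyr, Tyrp1, Oca2 and Gpr143, genes of pigment cells, had no acetylation island in any MC38 KO library. Gut epithelium markers did not separate the lines, with 1 higher and 1 lower in MC38 KO of 16 tested, and 4 of 11 mesenchymal markers were higher in MC38 KO. Of 8 leukocyte markers none passed in either direction. Over all 30580 regions tested for H3K9Ac, 5.14% were higher and 5.98% lower in MC38 KO. The gut epithelium and leukocyte counts were near these shares. The Setdb1 region itself had no H3K9me3 island in any MC38 KO library and 5.03, 0 and 7.07 RPM (reads per 1000000 island reads after scaling) in the B16 KO libraries, which does not check the knockout.

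The 2 lines without Setdb1 kept H3K9me3 at different genes. In MC38 KO the mark was higher over long genes of chromosomes 3, 13 and 19, such as Nlgn1, Mctp1 and Trpm3, and in B16 KO over genes of chromosomes 1, 6, 11 and 12, such as Fhl2, Chrm2, Myo1d and Ppp4r4. Of 25675 gene regions (the gene with 2 kb on both sides) with a mean of at least 10 reads over the 12 libraries, 766 (2.98%) were higher in MC38 KO and 1289 (5.02%) lower (edgeR quasi-likelihood test, adjusted p under 0.05). Together 8% were called. Without MC38 KO library 3, 944 were higher and 1282 lower, and without B16 KO library 3, 820 were lower. Among the 766 higher regions, 334 were protein coding and 572 had no island in any B16 KO library. Among the 1289 lower regions, 589 were protein coding and 1210 had no island in any MC38 KO library. The median length of called regions was 23.3 kb for the higher and 13.5 kb for the lower, beside 7.70 kb for regions not called. Reads were summed over each region without scaling by length, so long regions can hold more reads. The effect of length on the calls was not tested.

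**Figure D1:**
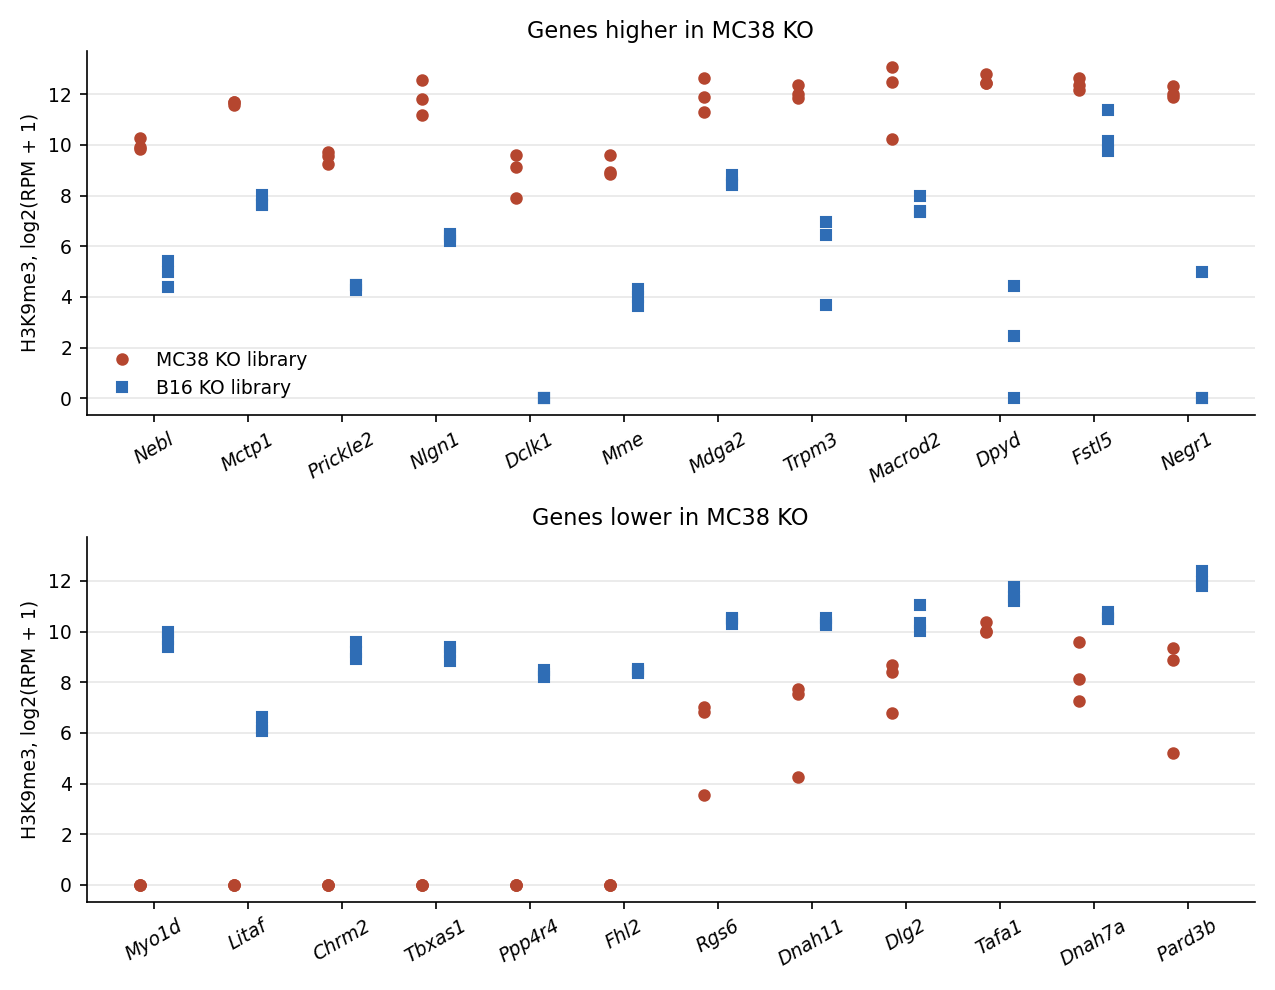
H3K9me3 per gene region in each KO library, as log2 of RPM plus 1, for the protein-coding genes of smallest p and of highest level in each direction; circles are MC38 KO libraries, squares are B16 KO libraries, and a point at 0 means that no island was called. For Nebl the 3 MC38 KO libraries lay between 913 and 1241 RPM, above the B16 KO libraries.

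Nebl, an actin-binding protein of chromosome 2, had 972, 1241 and 913 RPM in MC38 KO, against 30.8, 42.2 and 19.8 RPM in B16 KO (log2 difference 5.07, SE 0.41, adjusted p = 0.000574). All 3 MC38 KO libraries lay far above all 3 B16 KO libraries, as the plot of gene levels shows for each gene of this kind. Mctp1, a calcium-binding membrane protein of chromosome 13, had 3304, 3043 and 3285 RPM in MC38 KO, against 200.1, 197 and 259 RPM in B16 KO (3.87, SE 0.32, adjusted p = 0.000574). Prickle2, of the planar cell polarity pathway, had 609, 847 and 746 RPM in MC38 KO, against 20.97, 21.4 and 18.5 RPM in B16 KO (5.18, SE 0.43, adjusted p = 0.000574). Prickle2 was higher in MC38 KO although it lies on chromosome 6, where most called windows were lower.

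Several of the genes with the highest level encode proteins of neurons. Level here is the sum over the whole gene region, not scaled by length, so long genes can rank high in either direction. Nlgn1, a synaptic adhesion protein, had 6020.1, 3641 and 2322 RPM in MC38 KO, against 87.5, 72.3 and 84.1 RPM in B16 KO (5.62, SE 0.47, adjusted p = 0.000574). Mdga2, which binds neuroligins, had 6370.1, 3822 and 2525 RPM in MC38 KO, against 452, 359 and 339 RPM in B16 KO (3.47, SE 0.39, adjusted p = 0.00132). In both genes MC38 KO library 3 was the lowest of its group and still above every B16 KO library. Trpm3, a cation channel, had 3677, 4078 and 5304 RPM in MC38 KO, against 11.7, 124 and 86.4 RPM in B16 KO (5.88, SE 0.80, adjusted p = 0.00238). Macrod2, an enzyme that removes ADP-ribose, had 8571, 5729.5 and 1207 RPM in MC38 KO, against 249.9, 164 and 167 RPM in B16 KO (4.74, SE 0.67, adjusted p = 0.0027). Dpyd, which breaks down pyrimidines, had 7228, 5607 and 5531 RPM in MC38 KO, against 0, 20.5 and 4.53 RPM in B16 KO (9.52, SE 1.77, adjusted p = 0.00825). Islands lay over 96.4%, 90.3% and 70.8% of the Dpyd region in MC38 KO and over 0%, 0.457% and 0.128% of it in B16 KO. Dclk1, a microtubule-associated kinase, had 239, 771 and 555 RPM in MC38 KO and no island in any B16 KO library (adjusted p = 0.000626).

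Many of the genes lower in MC38 KO had no island there at all. Myo1d, an unconventional myosin, had no island in any MC38 KO library, against 676, 1015 and 845 RPM in B16 KO (adjusted p = 0.000666). Chrm2, a muscarinic acetylcholine receptor, had none in MC38 KO, against 773, 488 and 589 RPM in B16 KO (adjusted p = 0.000726). The B16 KO islands covered 86.0%, 62.3% and 76.8% of the Chrm2 region. Tbxas1, the thromboxane synthase, had none in MC38 KO, against 453, 672 and 579.7 RPM in B16 KO (adjusted p = 0.000815). Ppp4r4, a regulatory subunit of a protein phosphatase, had none in MC38 KO, against 316, 357 and 293 RPM in B16 KO (adjusted p = 0.000815). Fhl2, a LIM domain cofactor, had none in MC38 KO, against 333, 369.9 and 344 RPM in B16 KO (adjusted p = 0.000815). For these genes the fitted fold is not given, since an island file lists only stretches above the caller's threshold. Rgs6, a regulator of G protein signalling, had 10.7, 111 and 129 RPM in MC38 KO, against 1278, 1455 and 1484 RPM in B16 KO (log2 difference -4.07, SE 0.86, adjusted p = 0.0142). With the 6 KO libraries fitted alone, the calls of Dpyd and Rgs6 were lost (adjusted p = 0.0676 and 0.0621).

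Other genes of high level were called by a narrow margin. Fstl5 and Negr1 on chromosome 3 were higher in MC38 KO (adjusted p = 0.0459 and 0.0479), and Pard3b, Dnah7a, Dnah11, Dlg2 and Tafa1 were lower (adjusted p from 0.0261 for Dnah11 to 0.0459 for Pard3b). Each of the 7 lost its call when one of several single libraries was left out, with adjusted p up to 0.226 for Negr1 over all alternatives. Their direction held in all of them. Negr1, a neural cell adhesion protein, had 5139, 3789 and 4082 RPM in MC38 KO, against 0, 0 and 30.7 RPM in B16 KO. Pard3b, of a cell polarity family, had 467, 661 and 35.6 RPM in MC38 KO, against 5426, 3594 and 4014 RPM in B16 KO.

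A gene region without an island in 1 line mixes level with island calling, so the 3628 gene regions with islands in all 6 KO libraries were tested apart with limma. Of these 247 (6.81%) were higher in MC38 KO and 165 (4.55%) lower, 11.4% in all, with a median log2 difference of 0.05. Without B16 KO library 2 the counts were 45 and 15, and without B16 KO library 3 they were 44 and 15. Without MC38 KO library 2 they were 163 and 255, and without B16 KO library 1 the lower genes numbered 73. Plch1, a phospholipase of chromosome 3, had 968, 1084 and 765 RPM in MC38 KO, against 18.7, 22.3 and 12.8 RPM in B16 KO (log2 difference 5.69, SE 0.40, limma adjusted p = 0.00173). Lrriq3, also on chromosome 3, had 552, 603 and 464 RPM in MC38 KO, against 11.3, 14.8 and 21.1 RPM in B16 KO (limma adjusted p = 0.00173). Srgap3, a GTPase-activating protein of neurons, had 12.2, 10.7 and 27.2 RPM in MC38 KO, against 289.7, 759 and 779 RPM in B16 KO (-5.14, SE 0.57, limma adjusted p = 0.00436). Syt14, a synaptotagmin, had 14.6, 27.6 and 51.7 RPM in MC38 KO, against 513, 612 and 537 RPM in B16 KO (-4.30, SE 0.52, limma adjusted p = 0.00539). Klrd1 on chromosome 6 and Lynx1 on chromosome 15 were lower as well (limma adjusted p = 0.00173 each), with islands over at most 6.64% of the Klrd1 region in MC38 KO and at least 87.7% of it in B16 KO.

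The line difference was spread unevenly over the chromosomes. Over 5 kb windows, 9284 of 269906 tested (3.44%) were higher in MC38 KO and 8134 (3.01%) lower, 6.45% in all. Without B16 KO library 2 the lower windows numbered 5357, and without B16 KO library 3 they numbered 5054. On chromosome 3, 4028 windows (17.9% of those tested there) were higher, which made 43.4% of all higher windows. Chromosome 13 had 15.5% higher and chromosome 19 had 8.31%. Lower windows were most frequent on X (13.3% of only 814 tested of 34177), chromosome 6 (8.39%), chromosome 12 (6.70%) and chromosome 11 (6.29%).

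**Figure D2:**
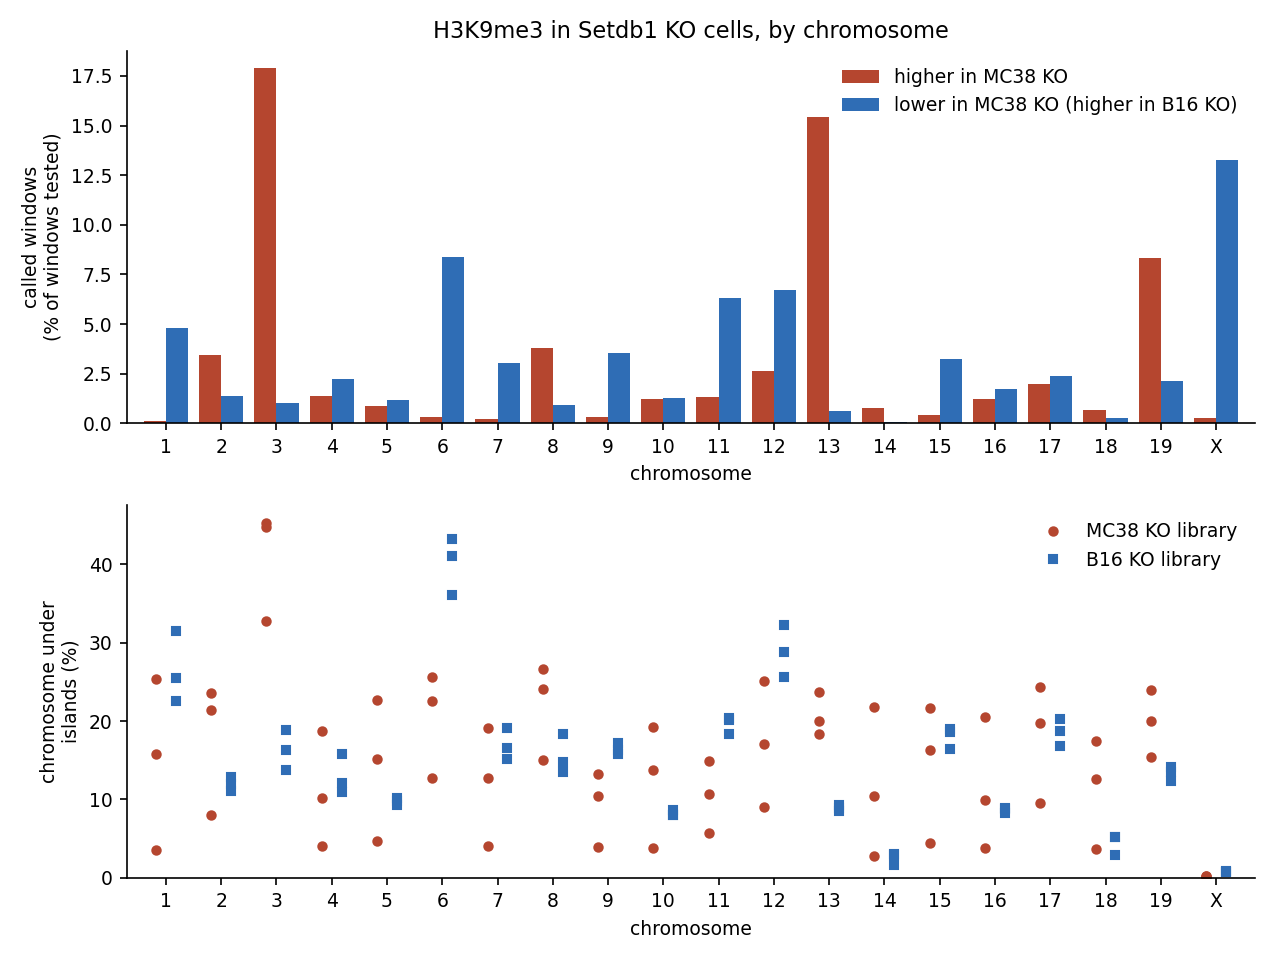
Upper panel, percent of tested 5 kb windows called higher (first bar) or lower (second bar) in MC38 KO than in B16 KO, for each chromosome; lower panel, percent of each chromosome under H3K9me3 islands, with 1 point per KO library, circles for MC38 KO and squares for B16 KO. On chromosomes 3 and 13 all MC38 KO libraries lay above all B16 KO libraries, and on chromosome 6 all lay below.

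Chromosome 3 was under islands over 44.7%, 45.2% and 32.7% of its length in MC38 KO, against 18.8%, 13.8% and 16.3% in B16 KO. Chromosome 13 was covered over 19.9%, 23.7% and 18.4% in MC38 KO, against 8.54%, 8.94% and 9.24% in B16 KO. For both chromosomes the plot by chromosome shows the libraries of the 2 lines apart, MC38 KO library 3 included. Chromosome 6 showed the opposite order, with 25.6%, 22.5% and 12.7% in MC38 KO, against 43.3%, 36.1% and 41.0% in B16 KO. On chromosome 1 the libraries of the 2 lines overlapped, and MC38 KO library 3 was the lowest there (3.55%). Mean coverage of chromosome 3 was 40.9% in MC38 KO and 16.3% in B16 KO, and control cells had 41.3% in MC38 control and 15.0% in B16 control. The mean coverage of chromosome 6 was 21.5% in MC38 control and 30.3% in B16 control.

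Within a chromosome the higher windows came in blocks. On chromosome 13, between 80 and 90 Mb, 60.6% of tested windows were higher in MC38 KO. On chromosome 3 the share was 47.3% between 150 and 160 Mb and 41.0% between 120 and 130 Mb, but 0.520% between 100 and 110 Mb. On chromosome 6 the lower windows made 32.4% between 30 and 40 Mb and 0.603% between 60 and 70 Mb. Chromosome 12 held blocks of both kinds, with 18.1% lower in its first 10 Mb and 19.9% higher between 60 and 70 Mb. Other measures by chromosome are on another scale and cannot be compared in size with these shares. The first of them also leaves out windows marked in 1 line only. The median log2 difference of windows covered in all 6 KO libraries was 0.57 on chromosome 3, 0.44 on chromosome 13 and -0.23 on chromosome 6, beside 0.07 over all. The median log2 difference of H3K9Ac at gene starts was 0.17, 0.18 and -0.19 on the same 3 chromosomes, beside 0.03 over all. The number of DNA copies of a region in each line and the level of the mark per copy cannot be told apart in these files, and input libraries were not used here.

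Long domains stood out in both directions. The longest run of adjacent windows called higher in MC38 KO lay at chr3:117565001-117750000 over Plppr5, a neuronal membrane protein, and islands covered 96.5%, 93.7% and 82.7% of it in the MC38 KO libraries and 0% in the B16 KO libraries. The run of the same length at chr3:155385001-155570000 held no protein-coding gene, and the third, chr3:119010001-119190000, lay in Dpyd. Of the runs of called windows, 86 higher ones held 10 windows or more, and 16 lower ones did. The longest run called lower, chr11:83640001-83730000, held the chemokine genes Ccl3 and Ccl4 and the genes Wfdc17 and Wfdc18. It had no island in any MC38 KO library, and islands over 94.2%, 93.6% and 99.1% of it in the B16 KO libraries. The next, chr6:41910001-41990000, held Sval1 and Sval3, and chr6:7190001-7255000 held no protein-coding gene.

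Windows marked in all 3 KO libraries of 1 line and bare in the other showed how much of this lay in control cells too. A window counted as marked with at least 500 bp under islands and as bare with 0 bp. Of 526333 windows, 12945 (2.46%, 64.7 Mb) were marked in MC38 KO only, 19487 (3.7%, 97.4 Mb) in B16 KO only and 17383 (3.3%, 86.9 Mb) in both lines. Of the MC38 KO only windows, 76.4% were marked in all 3 MC38 controls and 81.3% in no B16 control. Of the B16 KO only windows, 51.3% were marked in all 3 B16 controls and 77.7% in no MC38 control. Among all windows these shares were 11.6% for all 3 MC38 controls and 11.2% for all 3 B16 controls. Being marked in no control was common among all windows, with 70.1% for B16 controls and 64.7% for MC38 controls. The shares of 81.3% and 77.7% were thus not far above those of all windows. Marked in all 3 MC38 controls and bare in all 3 B16 controls were 60.5% of the MC38 KO only windows. The reverse pattern in controls was held by 36.7% of the B16 KO only windows. Windows bare in all 6 control libraries were few, 112 of the MC38 KO only and 1164 (5.97%) of the B16 KO only windows. Without MC38 KO library 3, the MC38 KO only windows numbered 34600, and without B16 KO library 1 the B16 KO only windows numbered 31881.

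**Figure D3:**
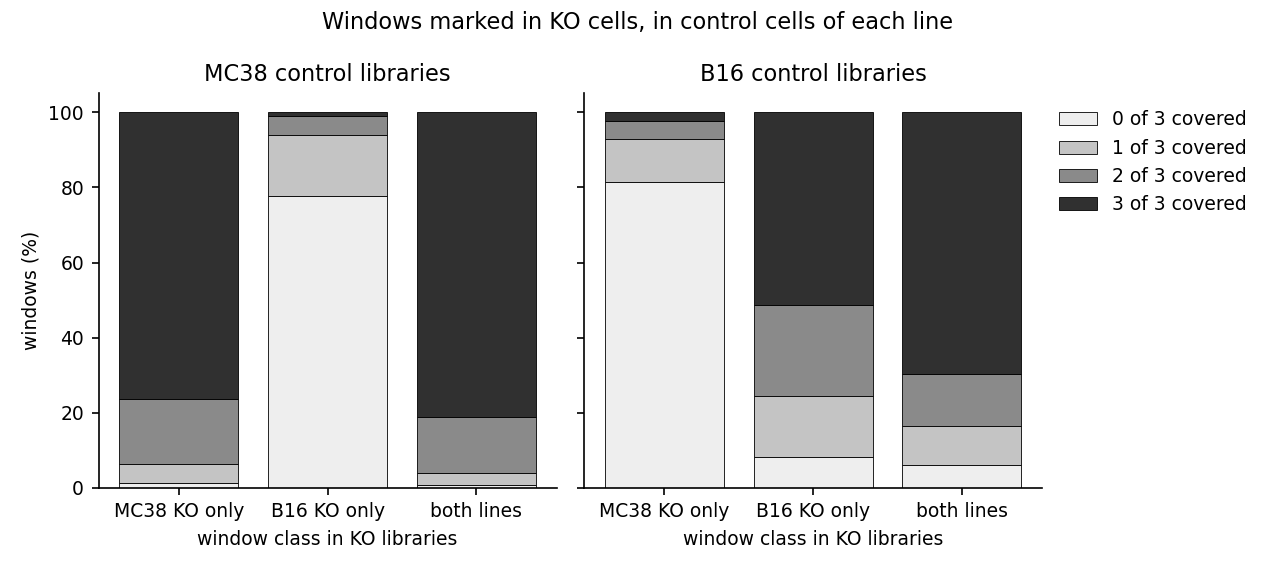
Percent of 5 kb windows that were marked in 0, 1, 2 or 3 control libraries, for windows marked in MC38 KO only, in B16 KO only or in both lines; left, MC38 control libraries, right, B16 control libraries. The darkest part of the bars, marked in all 3, holds 76.4% of the MC38 KO only windows in MC38 controls and 51.3% of the B16 KO only windows in B16 controls.

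The longest run of MC38 KO only windows, chr3:61735001-61970000, held no protein-coding gene, and 190 kb of Trpm3 (chr19:22360001-22550000) and Plppr5 (chr3:117560001-117750000) followed. The longest run of B16 KO only windows, chr11:83595001-83730000, was the Ccl3 and Ccl4 domain, with 93.6%, 95.1% and 97.3% under islands in B16 KO and 79.3%, 94.5% and 85.0% in B16 control libraries. Neither MC38 KO nor MC38 control libraries had an island there. The next were chr12:9940001-10060000, with no protein-coding gene, and chr1:56610001-56715000, with Hsfy2. As the plot of windows in control cells shows, nearly every MC38 KO only window had the mark in at least 1 MC38 control library, since 1.30% were marked in none.

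The same held for the calls over genes. Of the 766 genes higher in MC38 KO, 494 (64.5%) were also called higher in MC38 control than in B16 control libraries, and none was called the opposite way. Of the 1289 lower genes, 956 (74.2%) were also called lower in controls and 2 the opposite way. Control libraries on their own had 725 genes (2.82%) higher in MC38 and 1107 (4.31%) lower, 7.14% in all, with 482 higher without MC38 control library 3 and 684 lower without B16 control library 2. These calls come from a fit in which all libraries share 1 estimate of spread. In 2 separate fits with no library in common, 405 of 688 higher genes (58.9%) were called the same way in controls, where 5.25% of other genes were. For lower genes the count was 712 of 1545 (46.1%), where 6.66% of other genes were.

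Few regions passed the test of whether the line difference itself differed between KO and control cells. With 3 libraries a group, regions that did not pass may still differ. The interaction of line and genotype passed for 35 genes in the direction of MC38 KO (0.136%) and 67 in the direction of B16 KO (0.261%) of 25675, 0.397% in all (edgeR, adjusted p under 0.05), and for 2409 at an unadjusted p under 0.05. Of the 269906 windows, 272 (0.101%) passed in the direction of MC38 KO and 885 (0.328%) in that of B16 KO, 0.429% in all. Over genes DESeq2 called 1228 and 1635. Of the 35 genes, 32 had no island in any B16 KO library and islands in all 9 others. Of the 67 genes, 33 had no island in any MC38 KO library and 33 none in any B16 control library. Nearly every called interaction was thus a single group of 3 libraries without an island. The counts moved by over 1.5 times without several single libraries: the 35 ran from 19 without MC38 control library 3 and 22 without MC38 control library 1 to 93 without MC38 KO library 1, 83 without MC38 KO library 3, 54 without B16 KO library 1 and 53 without B16 KO library 2. The 67 ran from 36 without B16 control library 2 to 164 without MC38 KO library 2, 129 without MC38 KO library 3 and 139 without B16 control library 1.

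**Figure D4:**
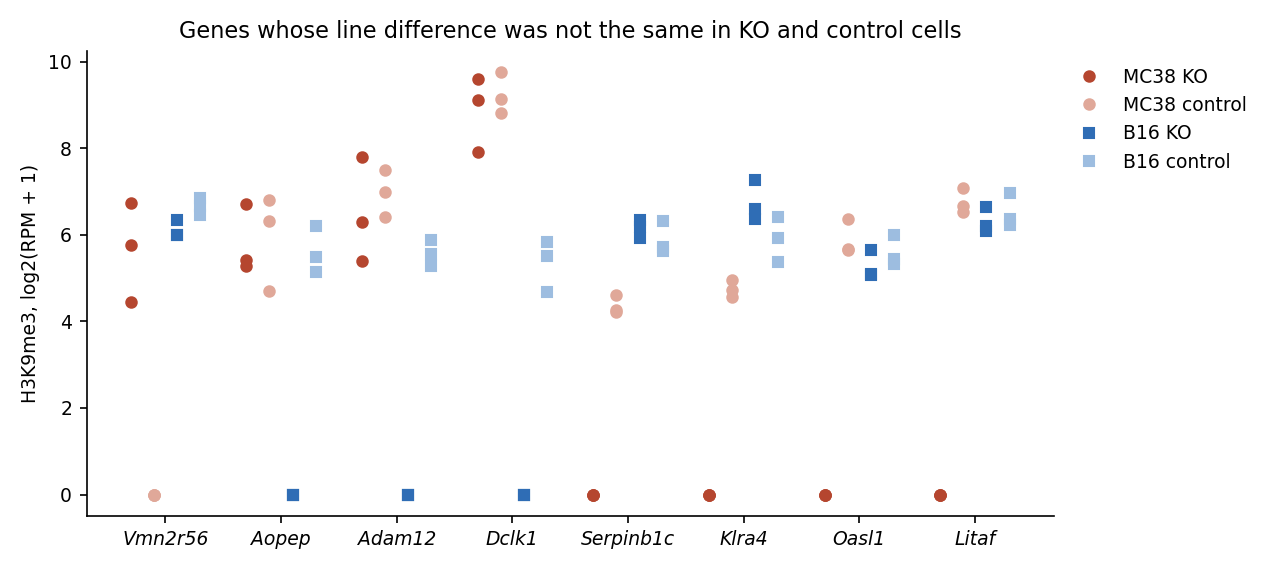
H3K9me3 per gene region in each of the 12 libraries, as log2 of RPM plus 1, for the 8 protein-coding genes of smallest interaction p; circles are MC38, squares are B16, dark symbols are KO, pale symbols are control, and a point at 0 means that no island was called. In Litaf, Klra4, Oasl1 and Serpinb1c the 3 MC38 KO libraries are at 0, in Aopep, Adam12 and Dclk1 the 3 B16 KO libraries are, and in Vmn2r56 the 3 MC38 control libraries are.

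Litaf, an endosomal membrane protein, had no H3K9me3 island in any MC38 KO library, against 98.8, 67.3 and 72.3 RPM in B16 KO, while MC38 control libraries had 134, 90.7 and 100.1 RPM and B16 control libraries 124, 81.5 and 73.3 RPM (interaction adjusted p = 0.00563). The island was small: it covered 1.06%, 1.06% and 3.17% of the region in B16 KO. Dclk1 had 239, 771 and 555 RPM in MC38 KO and 558, 867 and 451 RPM in MC38 control, with no island in any B16 KO library and 56.1, 24.5 and 44.7 RPM in B16 control (interaction adjusted p = 0.0102). Klra4, a natural killer cell receptor, had no island in MC38 KO and 22.5, 25.3 and 29.9 RPM in MC38 control, with 152, 81.8 and 95.4 RPM in B16 KO and 59.6, 40.4 and 83.6 RPM in B16 control (interaction adjusted p = 0.0102). Oasl1, of the family that senses double-stranded RNA, had no island in MC38 KO and 81.5, 49.2 and 49.7 RPM in MC38 control, with 49.2, 33.0 and 32.3 RPM in B16 KO and 62.7, 42.2 and 39.2 RPM in B16 control (interaction adjusted p = 0.0109). In these 4 genes only 1 group had no island, as the plot of KO and control libraries shows.

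Zinc finger genes, many of which encode the KRAB repressors that recruit Setdb1, carried more H3K9me3 in MC38 KO. Summed over the list it was 24252, 22101 and 23698 RPM in MC38 KO, against 16715, 13179 and 14708 RPM in B16 KO, with no overlap. Of 259 tested, 12 were called higher and 9 lower, shares close to those over all gene regions. All MC38 KO libraries lay above all B16 KO libraries in 66 and below in 30, where over all gene regions 8.76% lay above and 19.5% below. Of the 107 with islands in all 6 KO libraries, 79 had a log2 difference above 0, with a median of 0.58 where that of all such genes was 0.05. The share varied with the chromosome: the 40 on chromosomes 3, 13 and 19 had 6 higher and 0 lower and a median of 1.5, and the 219 elsewhere had 6 higher and 9 lower and a median of 0.37. Zfp934 on chromosome 13 had 325, 333 and 511 RPM in MC38 KO, against 81.0, 85.6 and 63.8 RPM in B16 KO (2.34, SE 0.38, adjusted p = 0.00468). Zfp456, also on chromosome 13, had 51.6, 104 and 59.0 RPM in MC38 KO and no island in B16 KO (adjusted p = 0.00346). Zfp941 on chromosome 7 had none in MC38 KO and 40.5, 57.9 and 65.1 RPM in B16 KO (adjusted p = 0.00469). The Zfp456 call was lost with the weakest islands dropped (adjusted p = 0.0687). Without MC38 KO library 3 the list had 7 higher and 7 lower.

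**Figure D5:**
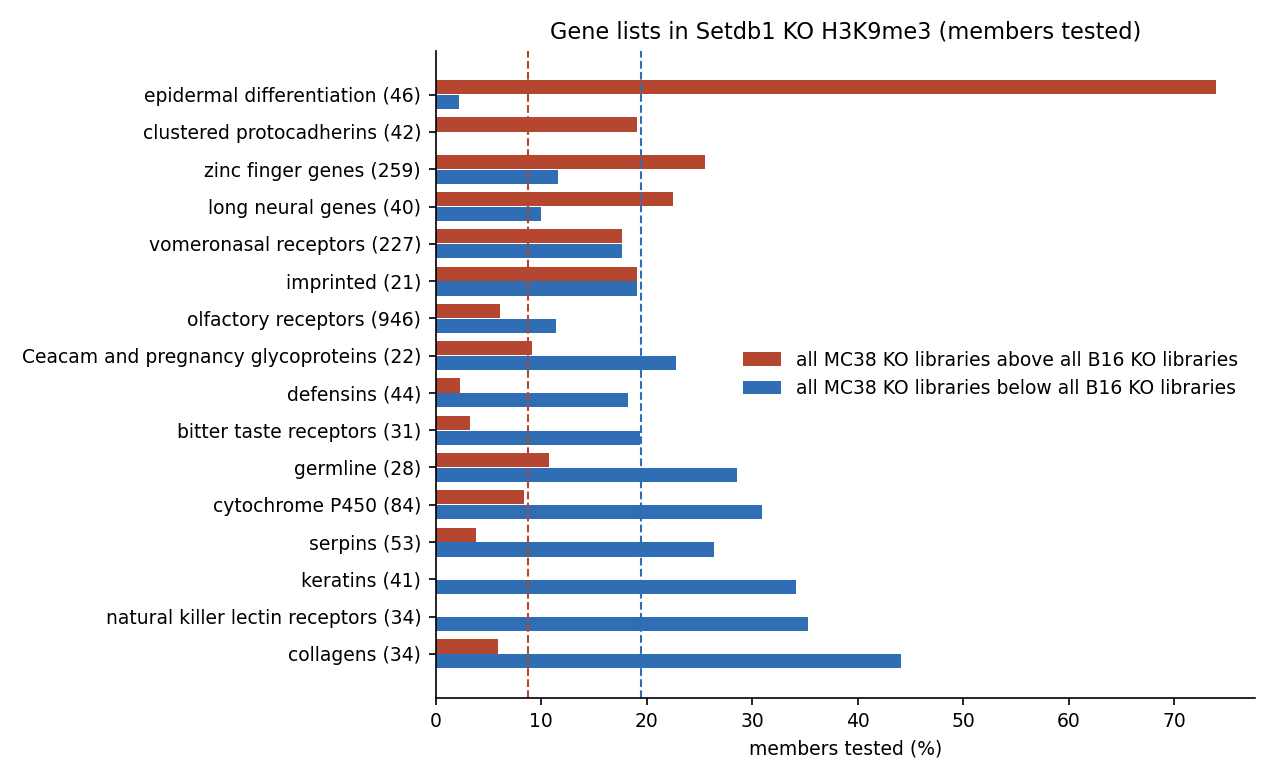
Percent of the tested members of each gene list for which all MC38 KO libraries lay above (first bar) or below (second bar) all B16 KO libraries in H3K9me3, with the number tested in parentheses; dashed lines mark the shares over all gene regions, 8.76% above and 19.5% below. Epidermal differentiation genes have the largest share above, and collagens the largest share below, of the lists drawn.

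Gene families that lie on 1 chromosome mostly had the direction most frequent there. Over all gene regions, 2.98% were called higher and 5.02% lower in MC38 KO. All 46 tested genes of the epidermal differentiation complex, which make proteins of the skin barrier, lie on chromosome 3. Of all tested gene regions of chromosome 3, 34.7% had all MC38 KO libraries above all B16 KO libraries. Of these 46 genes 34 (73.9%) did, and 1 lay below, as the plot of lists shows. A single member was called, Lce1a2, with 50.4, 41.1 and 49.3 RPM in MC38 KO and no island in B16 KO (adjusted p = 0.00437). Between control libraries 11 of the 46 were called higher in MC38 and 0 lower, beside 2.82% and 4.31% over all gene regions. The interaction passed for 3, beside 0.397% over all. Summed over the list, B16 KO had 893, 263 and 290 RPM and B16 control 301, 85.5 and 63.2 RPM. The sums were 2201, 1841 and 2025 RPM in MC38 KO and 2336, 1705 and 2236 RPM in MC38 control. Natural killer lectin receptors lie on chromosome 6, and 12 of 34 (35.3%) lay below and 0 above. That share was near the 36.0% of all tested gene regions of chromosome 6 that lay below. The 2 called lower were Klre1 and Klra4. Klre1 had no island in MC38 KO, against 128, 131 and 152 RPM in B16 KO (adjusted p = 0.0016). Of 31 bitter taste receptors 3 were lower, Tas2r126, Tas2r138 and Tas2r139, all on chromosome 6. Keratins, on chromosomes 11 and 15, had 5 lower and 0 higher of 41 (3 lower without MC38 KO library 3), among them Krt23, Krt78 and the epithelial keratin gene Krt8 (adjusted p = 0.0228 for Krt8). The Krt8 call was lost without B16 KO library 2 or 3 or B16 control library 2, and that of Tas2r126 without B16 KO library 3. Over gene bodies without flanks the calls of Krt8, Tas2r126 and Tas2r138 were lost. Clustered protocadherins on chromosome 18 had no call among 42, with 8 above and 0 below. On that chromosome 11.3% of all tested gene regions lay above and 3.62% below, beside 8.76% and 19.5% over all gene regions.

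In the large receptor families the direction varied with the chromosome. Of 227 vomeronasal receptors, 13 (5.73%) were higher and 4 (1.76%) lower in MC38 KO, beside 2.98% and 5.02% over all gene regions. In this list 40 (17.6%) lay above and 40 (17.6%) below, beside 8.76% and 19.5% over all gene regions. Those above included 26 of the 45 on chromosome 17, and those below 25 of the 58 on chromosome 6. Of all tested gene regions, 11.1% of those on chromosome 17 lay above and 36.0% of those on chromosome 6 lay below. Vmn2r5 on chromosome 3 had 142, 99.0 and 139.7 RPM in MC38 KO and no island in B16 KO (adjusted p = 0.00164). Vmn2r101 on chromosome 17 had 207, 112 and 64.4 RPM in MC38 KO and none in B16 KO (adjusted p = 0.00229). Of 946 olfactory receptors 28 (2.96%) were higher and 33 (3.49%) lower, shares near or below those over all gene regions, with 49 higher and 32 lower without MC38 KO library 3. Of the 273 on chromosome 2, 17 lay above and 0 below, where 8.87% of all tested gene regions there lay above and 11.5% below. Of the 195 on chromosome 7, 3 lay above and 21 below, where 2.54% of all lay above and 18.4% below. Olfr1393 had no island in MC38 KO, against 125, 116 and 122 RPM in B16 KO (adjusted p = 0.00169).

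Long neural genes, which include adhesion and glutamate receptor genes, had 8 higher (20%) and 1 lower (2.5%) of 40. Over all gene regions 2.98% were higher and 5.02% lower. Without MC38 KO library 3 the list had 12 higher and 0 lower. Long regions can hold more reads, and the effect of length on these counts was not tested. Gpc5, a cell surface proteoglycan, had 6222, 1515 and 169 RPM in MC38 KO and no island in B16 KO (adjusted p = 0.00259). Sorcs3, a sorting receptor of neurons, had 3611, 2880.0 and 2683 RPM in MC38 KO, against 813, 759.7 and 709.7 RPM in B16 KO (2.01, SE 0.29, adjusted p = 0.00288). Collagens had 2 higher (5.88%) and 4 lower (11.8%) of 34. In this list 2 (5.88%) lay above and 15 (44.1%) below, beside 8.76% and 19.5% over all gene regions. Col11a1 on chromosome 3 had 1382, 847 and 637 RPM in MC38 KO and no island in B16 KO (adjusted p = 0.00655). Col5a2 on chromosome 1 had none in MC38 KO, against 131, 174 and 181 RPM in B16 KO (adjusted p = 0.00125). Beside 2.98% higher and 5.02% lower over all gene regions, cytochrome P450 genes had 2 higher (2.38%) and 6 lower (7.14%) of 84, serpins 2 and 1 of 53 (1 higher without MC38 KO library 3), defensins 0 and 1 of 44, Ceacam and pregnancy glycoprotein genes 0 and 2 of 22, and Hox genes 0 and 1 of 14.

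Of 12 interferon and nucleic acid sensing genes 3 were lower in MC38 KO and 0 higher, beside 5.02% lower and 2.98% higher over all gene regions. With so few members these counts are a description. Zbp1, a sensor of Z-form nucleic acid, had no island in MC38 KO, against 30.0, 50.4 and 49.7 RPM in B16 KO (adjusted p = 0.00524). Oas1a had none in MC38 KO, against 15.2, 17.7 and 9.88 RPM in B16 KO (adjusted p = 0.0251), and lost its call without B16 KO library 2 or 3 or B16 control library 2 or 3. Oasl1 was the third, and its call was lost over the gene body without its flanks (adjusted p = 0.224). Of 6 genes of retroviral restriction 2 were lower: Apobec3, a cytidine deaminase that restricts retroviruses, and Zfp809, which directs Setdb1 to retroviruses in mouse. Zfp809 had no island in MC38 KO, against 41.0, 34.7 and 36.1 RPM in B16 KO (adjusted p = 0.0216), and Apobec3 none, against 5.13, 35.2 and 21.02 RPM (adjusted p = 0.0159). The Zfp809 call was lost without MC38 KO library 1 or B16 KO library 3, and that of Apobec3 without B16 KO library 2 or over the gene body without its flanks. MHC class I genes had no call among 4 (2 lower without MC38 KO library 3), and H3K9 methylation factors none among 6.

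Of 28 germline genes, often silenced by H3K9 methylation, 1 (3.57%) was higher and 3 (10.7%) lower. Over all gene regions 2.98% were higher and 5.02% lower. Without MC38 KO library 3 the list had 1 higher and 1 lower. Piwil1, which binds small RNAs that silence transposons, had 134, 16.9 and 25.9 RPM in MC38 KO and no island in B16 KO (adjusted p = 0.0121). Tdrd5, of the same pathway, had none in MC38 KO, against 43.2, 131 and 126 RPM in B16 KO (adjusted p = 0.0125). Of 21 imprinted genes only Meg3, a maternally expressed long noncoding RNA, was called lower, a share of 4.76% beside 5.02% over all gene regions. Meg3 had 18.4, 9.44 and 9.83 RPM in MC38 KO, against 246, 133 and 197 RPM in B16 KO (-3.93, SE 0.78, adjusted p = 0.0108). Islands covered 96.0%, 61.4% and 97.7% of the Meg3 region in B16 KO. B16 control libraries had 63.6, 33.7 and 23.2 RPM there, and the interaction did not pass (adjusted p = 0.475). The Meg3 call was lost over the gene body without its flanks (adjusted p = 0.231), and that of Piwil1 with the weakest islands dropped.

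Marker genes of the tissues of origin had calls in both directions, with small numbers tested, beside 2.98% higher and 5.02% lower over all gene regions. Of 9 tested melanocyte genes only Mitf, the regulator of pigment cells, was called, and it was lower in MC38 KO: no island there, against 71.6, 29.6 and 34.8 RPM in B16 KO (adjusted p = 0.00694), with islands over at most 6.69% of its region. The Mitf call was lost with the weakest islands dropped. Of 15 gut epithelium genes Lgr5, a marker of intestinal stem cells, was higher, with 102, 288 and 96.0 RPM in MC38 KO and no island in B16 KO (adjusted p = 0.018). Its call was lost without B16 KO library 2 or 3. Krt8 was the other. Of 5 mesenchymal genes Twist2 was lower, a call lost over the gene body without its flanks, and of 9 leukocyte genes and 1 housekeeping gene none was called.

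H3K9Ac at gene starts was lower more often where H3K9me3 was higher. Of 30580 starts tested, 5.14% were higher and 5.98% lower in MC38 KO, 11.1% in all. For genes whose start was not given, the whole gene region with 2 kb on both sides was counted instead. Among the 305 tested genes with higher H3K9me3 in MC38 KO, 30.2% had lower H3K9Ac there and 1.64% higher. Among the 856 tested genes with lower H3K9me3, 12.2% had higher H3K9Ac and 3.50% lower. Mdga2 had no H3K9Ac island at its start in any MC38 KO library, against 58.4, 47.1 and 46.2 RPM in B16 KO (adjusted p = 3.5e-05). Dclk1 had none in MC38 KO, against 31.9, 24.4 and 21.7 RPM in B16 KO (adjusted p = 0.000402). Prickle2 had none in MC38 KO, against 19.3, 15.1 and 21.5 RPM in B16 KO (adjusted p = 0.00118). In the other direction Syt14 had 15.5, 11.8 and 12.2 RPM of H3K9Ac in MC38 KO and none in B16 KO (adjusted p = 0.00283). Both marks were lower in MC38 KO at Dnah11, which had no H3K9Ac there, against 13.5, 8.27 and 13.7 RPM in B16 KO (adjusted p = 0.00433).

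Promoters under islands were poor in CG. Among 17273 protein-coding genes with a promoter sequence (250 bases before to 50 after the start, from RefSeq, GRCm38.p6), the 300 bases lay fully under H3K9me3 islands in all 3 MC38 KO and in no B16 KO library for 51, and in all 3 B16 KO and no MC38 KO library for 194. The first had a median of 1 CG, counted on 1 strand since CG reads the same on both, and the second 2, against 14 over all promoters and 17 in the 14134 with no island in any KO library. At least 1 CG was held by 68.6% of the 51, 82.0% of the 194 and 95.0% of all promoters, and 10 or more by 7.84%, 4.64% and 57.9%. Of the 51, 0 had H3K9Ac in all KO libraries of a line. Of the 194, 8 (4.12%) had it in all MC38 KO and 11 (5.67%) in all B16 KO libraries. For the 43 promoters under H3K9me3 islands in both lines these counts were 1 and 1. Over all promoters the shares were 53.0% and 56.3%, so little H3K9Ac was common to each of these classes. The 4 sequences that follow show the contrast, with each CG in capitals. That of Mme (neprilysin, a membrane peptidase; chr3:63294961-63295260, + strand) was under H3K9me3 over 240, 300 and 300 bases in MC38 KO and 0 in B16 KO, and under H3K9Ac over 0 bases in MC38 KO and 260 in each B16 KO library. That of Lce1a2 (chr3:92670266-92670565, - strand) was fully under H3K9me3 in each MC38 KO and each MC38 control library and bare in B16. That of Fhl2 (chr1:43196712-43197011, - strand) was fully under H3K9me3 in each B16 KO library and fully under H3K9Ac in each MC38 KO library. Its H3K9me3 was the same in control libraries, with 300 bases in each B16 control and 0 in each MC38 control. Its H3K9Ac was not, with 0 bases in each MC38 control and 300, 0 and 0 in the B16 controls. That of Prickle2 (chr6:92706135-92706434, - strand) held 25 CG and no H3K9me3 island in any KO library, and lay under H3K9Ac in all 3 B16 KO and no MC38 KO library.
Mme: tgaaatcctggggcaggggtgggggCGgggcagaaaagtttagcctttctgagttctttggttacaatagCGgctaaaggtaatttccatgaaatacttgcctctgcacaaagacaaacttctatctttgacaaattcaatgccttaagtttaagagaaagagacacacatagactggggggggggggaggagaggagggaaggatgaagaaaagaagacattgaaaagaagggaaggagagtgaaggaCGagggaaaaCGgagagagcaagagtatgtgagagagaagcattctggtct
Lce1a2: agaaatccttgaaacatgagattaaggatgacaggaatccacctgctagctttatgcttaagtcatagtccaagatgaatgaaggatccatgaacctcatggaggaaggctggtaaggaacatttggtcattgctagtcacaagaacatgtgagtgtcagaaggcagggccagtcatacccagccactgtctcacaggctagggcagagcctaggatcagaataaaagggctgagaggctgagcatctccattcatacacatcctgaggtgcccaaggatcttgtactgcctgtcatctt
Fhl2: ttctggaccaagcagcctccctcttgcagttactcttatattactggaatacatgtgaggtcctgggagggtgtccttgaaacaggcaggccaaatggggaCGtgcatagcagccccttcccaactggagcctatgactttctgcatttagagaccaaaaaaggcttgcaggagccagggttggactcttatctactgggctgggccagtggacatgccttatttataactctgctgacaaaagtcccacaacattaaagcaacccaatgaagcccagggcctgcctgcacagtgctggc
Prickle2: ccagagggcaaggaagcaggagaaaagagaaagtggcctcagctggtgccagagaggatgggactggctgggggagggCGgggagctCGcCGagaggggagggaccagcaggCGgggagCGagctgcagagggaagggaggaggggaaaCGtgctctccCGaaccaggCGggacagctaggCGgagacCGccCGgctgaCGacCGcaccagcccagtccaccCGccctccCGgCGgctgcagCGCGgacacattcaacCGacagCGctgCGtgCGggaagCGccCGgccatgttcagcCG

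The Mme sequence held 4 CG, that of Fhl2 1 and that of Lce1a2 0. Mme as a whole gene had 461, 483 and 767 RPM of H3K9me3 in MC38 KO, against 11.5, 18.98 and 15.1 RPM in B16 KO (5.23, SE 0.47, adjusted p = 0.000666), and 0 RPM of H3K9Ac at its start in MC38 KO, against 17.5, 16.2 and 14.1 RPM in B16 KO (adjusted p = 0.00194). The Prickle2 region was marked over 30.9%, 42.5% and 26.5% of its length in MC38 KO although its CG-rich promoter was not. The H3K9Ac difference over the 2 kb on both sides of the Fhl2 start, 10.4, 8.55 and 9.96 RPM in MC38 KO and none in B16 KO, did not pass (adjusted p = 0.158). That region is set by the gene's outer start, 1582 bases from the start of the printed sequence's transcript.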

How the data were processed

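Per the submitters' processing notes, the reads were handled with cutadapt, Bowtie2 2.1.0, SAMtools 0.1.8, SICER 1.1 and deepTools 3.1.1 on the mouse build mm10. The deposited files list SICER islands, and their names give 200 bp windows, a 600 bp gap and a false discovery rate of 0.05. The last column holds, for each island, a whole-number read count, not normalized, as deposited. Islands were called in each library apart, and nothing says whether inputs served as background in the calling, so a value of 0 means that no island was called.

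From these counts, reads of each island were shared by overlap among gene regions of the RefSeq table (GRCm38.p6, the same primary build) with 2 kb on both sides, and among 5 kb windows of chromosomes 1 to 19 and X, then rounded. Of 49997 genes in the table, 49550 had a position there. Regions with a mean of at least 10 reads over the 12 H3K9me3 libraries were fitted with edgeR 4.0.16 (R 4.3.3) by the quasi-likelihood test with TMM scaling and a trended dispersion, over 4 groups. P-values were adjusted by Benjamini and Hochberg over all regions, with calls at adjusted p under 0.05. RPM are island reads per 1000000 after TMM scaling, and gene and window RPM have different scales. Gene regions with islands in all 6 KO libraries were tested with limma 3.58.1 on log2(RPM + 0.5). This understates changes of low regions. H3K9Ac was counted within 2 kb of the gene start where the RefSeq promoter table gave it (26793 genes), otherwise over the gene region. Both kinds of region are called gene starts in the text. Single values per library were compared by exact two-sided permutation. The scripts were tested on simulated data.

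DESeq2 1.42.0, other scalings, filters and islands, gene bodies, the KO libraries alone, a replicate block and leaving out each library were alternatives. Refitting the gene lists with other scalings or without MC38 KO library 3, and fitting KO and control libraries apart, were chosen after seeing the data. A gene was named when it was protein coding with an established symbol, called, changed by at least 1 on the log2 scale and without overlap between the 6 KO libraries: per direction the 6 of smallest p and the 6 of highest level, the 4 of smallest p by limma and by the interaction, and up to 3 members of smallest p of each of 26 gene lists, called or not, with the longest runs of windows. The members, lists and rules were chosen with earlier results of these data known. Overlapping genes share island reads, as do near-identical family members, since the handling of reads with several matches is not given in the sources used here. Chromosome X was nearly free of islands: it held 0.0914% of island reads in MC38 KO and 0.315% in B16 KO.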

Additional observations from a re-analysis of the deposited data

Results flagged for a closer look

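Among the genes with a line difference of H3K9me3 that itself differed between KO and control cells were 16 protein-coding genes in the direction of MC38 KO and 28 in that of B16 KO (edgeR interaction of line and genotype, adjusted over 25675 gene regions), of which the 10 named by rule follow. The adjusted p was 0.00563 for Litaf, 0.0102 for Dclk1, 0.0102 for Klra4, 0.0109 for Oasl1, 0.0115 for Serpinb1c, 0.0116 for Vmn2r56, 0.0154 for Adam12, 0.0182 for Aopep, 0.0367 for Olfr223 and 0.0403 for Cyp3a41b. Vmn2r56, a vomeronasal receptor of chromosome 7, had 53.1, 106 and 20.9 RPM in MC38 KO and no island in any MC38 control library, with 62.5, 63.1 and 80.5 RPM in B16 KO and 99.7, 87.5 and 115 RPM in B16 control. Adam12, a membrane metalloprotease, had 41.1, 77.5 and 222 RPM in MC38 KO, 84.1, 179 and 126 RPM in MC38 control, no island in B16 KO and 46.3, 37.9 and 57.5 RPM in B16 control. Aopep, an aminopeptidase, had 41.5, 37.9 and 104 RPM in MC38 KO, 111, 78.5 and 24.9 RPM in MC38 control, no island in B16 KO and 73.0, 43.5 and 34.2 RPM in B16 control. Serpinb1c, a serine protease inhibitor, had no island in MC38 KO, 23.4, 17.6 and 18.1 RPM in MC38 control, 71.3, 59.6 and 79.5 RPM in B16 KO and 78.5, 51.8 and 48.4 RPM in B16 control. Cyp3a41b, a cytochrome P450, had no island in B16 KO and 39.6, 8.04 and 9.28 RPM in B16 control, and Olfr223, an olfactory receptor, none in MC38 KO and 4.71, 26.6 and 20.8 RPM in MC38 control. Each of these calls but that of Litaf was lost under at least 1 alternative. With stricter islands the calls of Klra4, Serpinb1c, Vmn2r56 and Olfr223 were lost. The calls of Olfr223 and Cyp3a41b were also lost without any 1 of several libraries, those of B16 KO among them.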

How the results depend on the processing

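Counts are given as higher and lower in MC38. With DESeq2 the KO comparison called 3027 and 4199 genes and 42441 and 32404 windows, the control comparison 3269 and 3785 genes, the interaction 1228 and 1635 genes and H3K9Ac 3495 and 3504 starts. Same-numbered MC38 KO and B16 KO libraries correlated in their deviations by 0.25, 0.0546 and 0.102, so the numbers were not taken as pairs, and library 3 of MC38 KO and library 2 of B16 KO correlated best with another number. With a replicate block the counts were 227 and 243 genes, 117 and 65 windows, 239 and 163 control genes, and 3 and 4 interaction genes. Of the 10 named interaction genes only Litaf kept its call with the block (adjusted p = 0.048), with 0.0809 for Dclk1, Klra4 and Oasl1 and up to 0.238 for Olfr223. Stricter islands left 40 lower interaction genes. The 6 KO libraries alone gave 12624 lower windows. By limma over all gene regions tested 1080 were higher and 2741 lower. With a higher minimum of bp under islands per marked window, 7324 windows were MC38 KO only and 9751 B16 KO only. Leaving out 1 library gave 543 to 944 higher and 820 to 1561 lower genes, 7628 to 11861 and 5054 to 9884 windows, 19 to 93 and 36 to 164 interaction genes, 482 to 1004 and 684 to 1493 control genes, 44 to 291 and 15 to 255 genes by limma, 1149 to 1716 and 1292 to 2008 H3K9Ac starts, and 14057 to 34600 and 21448 to 31881 windows of the 2 lines. The difference in covered length ran from -72.6 to 101 Mb, with -72.6 Mb without MC38 KO library 1, -12.0 without MC38 KO library 2 and -11.6 without B16 KO library 2, and that in reads per kb from 14.1 to 27.1. The cause of these changes was not tested. Of 1479 refits of 74 named genes, 191 lost the call and 0 changed direction, and 31 genes were called in every refit. Scaling by DESeq2's size factors or total reads moved the KO median of genes with islands in all 12 libraries from 0.15 to 0.12. Depth limits weak islands: a level under the caller's threshold reads as 0.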
